A study of Mus musculus with 12 samples.

Results

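The giant cytoskeletal linker genes described here are 9 genes whose proteins tie actin, microtubules or intermediate filaments to each other or to the cell membrane: Plec, Flna, Flnc, Macf1, Dst, Ahnak, Tln1, Sptan1 and Utrn. They were taken by name from the 20661 genes counted in the libraries. They share very long coding sequences, and they were chosen by name with their RNA, footprint and translation values in these libraries already known. Their values are therefore a description, and the calls given for them are not independent evidence of a change.

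Linker proteins carry several binding domains on 1 long chain, so that a single molecule can span from one part of the cytoskeleton to another. Filamins crosslink actin filaments, plakins join filament systems to each other and to adhesions, talin couples integrins to actin, spectrin forms the meshwork under the membrane, and utrophin links actin to the dystroglycan complex. In fibroblasts these proteins serve cell shape, adhesion, spreading and resistance to mechanical load. Translation of such a chain takes a ribosome far longer than translation of a typical message, so a single mRNA can carry many ribosomes at a time.

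RNAseq and ribosome profiling were compared in mouse embryonic fibroblasts (MEFs) at passage 4 to ask how loss of ARF, a tumor suppressor encoded by Cdkn2a, changes translation. There were 3 groups with 2 replicates in each of the 2 assays, or 12 libraries. The WT-shSCR group was wildtype (strain C57BL/6J per the labels, but B6129SF2/J in the study's methods) and received a scrambled control shRNA by lentivirus. The WT-shARF group was the same wildtype with an shRNA against Arf. The Arf-KO-shSCR group came from the knockout strain B6.129X1-Cdkn2atm1Cjs/KaiJ, in which the first exon of Arf is replaced by a neo cassette, and received the scrambled shRNA, so all 3 groups were transduced. By either source the strains of the knockout and wildtype differ, so genotype and strain background cannot be told apart. No source used here says whether the replicates were separate cultures or embryos, so the tests measure only the spread between these samples, which may be technical.

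Before the linker genes, the targeted gene was checked. Cdkn2a stood at 44.8 and 41.4 CPM (counts scaled to library size) in the WT-shSCR RNAseq libraries and at 27.7 and 32.4 in Arf-KO-shSCR, where the exons shared with Ink4a remain. It stood at 638 and 678 CPM in the RNAseq libraries labelled WT-shARF, higher rather than lower, the reverse of what a knockdown of the whole gene would give. These counts join the Arf and Ink4a transcripts, so they do not measure Arf alone. The paper shows knockdown of ARF in such cells by immunoblot, which is a measure of protein. The group is named here by its label only. Fibroblast markers had reads in every group, all 10 of 10, and summed to 29967 to 45918 CPM in footprints. The 8 macrophage markers, 8 of 8 with reads in every group, summed to 563 and 538 CPM of footprints in WT-shSCR, to 209 and 173 in the libraries labelled WT-shARF, and to 39.2 and 56.1 in Arf-KO-shSCR. The fibroblast sum was 42099 and 39655 in WT-shSCR, 45918 and 45534 in the libraries labelled WT-shARF, and 29967 and 30019 in Arf-KO-shSCR. Smooth muscle markers (6 of 6 with reads) summed to 18857 and 18066 CPM of footprints in WT-shSCR, 14743 and 14217 in the libraries labelled WT-shARF, and 19873 and 20378 in Arf-KO-shSCR. Smooth muscle RNA sums were 15302 and 15074 CPM, 10938 and 9787, and 14504 and 14567 in the same order. Skeletal muscle markers had 7 of 8 with reads in RNA and Myf5 at 0. Their RNA sums were 5159.8 and 4745 CPM, 2819.9 and 2365, and 3872 and 4535 in the same order. Their footprint sums were only 13 and 34.5 CPM, 16 and 12.5, and 14.3 and 10.8, with 4, 6 and 4 of 8 with reads. How the skeletal muscle RNA sums divide among these genes was not examined. Epithelial or mesothelial markers summed to 90.6 and 110 CPM of footprints in WT-shSCR (6 of 8 with reads, Epcam and Upk3b at 0), 73.6 and 94.9 in the libraries labelled WT-shARF and 182 and 184 in Arf-KO-shSCR (8 of 8 in both). These marker sums move with the groups compared below, and their part in the linker gene values was not tested. In bulk samples such as these, fewer cells of a type and less RNA per cell cannot be told apart. Depth was 1578627 to 3989908 reads on genes in RNAseq and 2544319 to 5157572 in footprints.

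The coding sequences of the 9 genes run from 7494 nt in Sptan1 to 23151 nt in Dst, against a median of 1230 nt over all genes with a coding sequence (longest per gene, GENCODE M21, GRCm38). Plec lies on the minus strand of chromosome 15 (76170974 to 76232574) with 14073 coding nt in 33 exons. Flna lies on the X chromosome (74223461 to 74249820, minus strand, 7941 nt) and Flnc on chromosome 6 (29433256 to 29461883, plus strand, 8178 nt). The 2 spectraplakins are Macf1 on chromosome 4 (123349633 to 123684360, minus strand, 22065 nt in 98 exons) and Dst on chromosome 1 (33908225 to 34308661, plus strand, 103 exons). Tln1 is also on chromosome 4 (43531519 to 43562691, minus strand, 7623 nt), Sptan1 on chromosome 2 (29965560 to 30031451, plus strand), Utrn on chromosome 10 (12382188 to 12869365, minus strand, 10290 nt) and Ahnak on chromosome 19 (8989284 to 9076914, plus strand, 16968 nt). Ahnak is built unlike the rest, with 98.0% of its coding sequence in a single exon of 16623 nt.

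Repeats inside a gene bear on its counts, because reads that aligned to more than 1 place were left out by the authors' counting and the libraries were made from short fragments. Of all 28-nt windows of the Ahnak coding sequence, 30.85% occur more than once within it, so a read of exactly such a window has no unique place. The sequences below show that repeat: first the 3 most repeated windows that do not overlap, in lower case, then a single-mismatch copy of the first whose differing base is in capitals, and last the most repeated window of Plec.
Ahnak window A: ggcccagactggcacctgaagatgccca
Ahnak window B: ttgatgtctcaggacccaaggtggacat
Ahnak window C: aaaatgcccaagttcagcatgcctggct
Ahnak window A, copy with 1 mismatch: ggcccagactggcacctTaagatgccca
Plec window: tacctgcagctgctggagcgctgtgtgg
Window A occurs 15 times in the Ahnak coding sequence, and windows B and C 14 times each. Their first copies are at chr19:9005089-9005116, chr19:9005192-9005219 and chr19:9005494-9005521 (GRCm38, plus strand), all in the coding part of the large exon. The commonest distance between copies is 384 nt for each of the 3 windows. The copy with 1 mismatch, at chr19:9005845-9005872, occurs 1 time as printed. The Plec window, whose first copy is at chr15:76177197-76177224 (minus strand), occurs 2 times, 1977 nt apart.

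The other genes were close to free of such windows. In Plec 0.53% of windows were repeated within the gene and 0.33% were shared with Eppk1, which encodes epiplakin, another plakin. Dst shared 2.20% of its windows with AC116841.1, a processed pseudogene, and Tln1 shared 0.07% with Tln2, its paralog. Flna, Flnc, Macf1, Sptan1 and Utrn had 100% unique windows. Fold changes between groups compare the same countable positions of a gene, whereas the levels of Ahnak below are lower bounds on this account. Footprints were cut with RNase T1, which cleaves after G, and G made up 25.6% (Macf1) to 33.5% (Plec) of the coding sequences against a median of 26.2% over genes. GC content ran from 47.4% in Macf1 to 61.6% in Plec, with a median of 52.1% over genes.

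Promoters were searched for the CArG box, an A and T rich element of 10 bases bound by serum response factor, which controls many actin genes. A window of 250 bases before to 50 bases after the start was available from RefSeq for 8 of the 9 genes, all but Plec. Of these, 0 held a match on either strand, where 1.81% of 27025 genes did.

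Levels were compared between genes per 1000 nt of coding sequence. In WT-shSCR RNAseq the order was Flna (1184 CPM per 1000 nt), Tln1 (353), Flnc (223), Sptan1 (169), Ahnak (154), Plec (126), Utrn (25.1), Macf1 (21.2) and Dst (17.6). Sptan1 did not differ from Ahnak beyond their SDs, nor did Utrn from Macf1 or Macf1 from Dst. Flna RNA was above 99.3% of all genes on this scale and Dst RNA above 66.9%. Footprints gave the same order, from Flna at 588 CPM per 1000 nt to Dst at 3.55, with only Utrn (13.5) and Macf1 (10.9) within their SDs of each other. Together the 9 genes took 1.84 to 2.13% of the RNA reads on genes and 0.837 to 1.17% of the footprint reads.

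**Figure D1:**
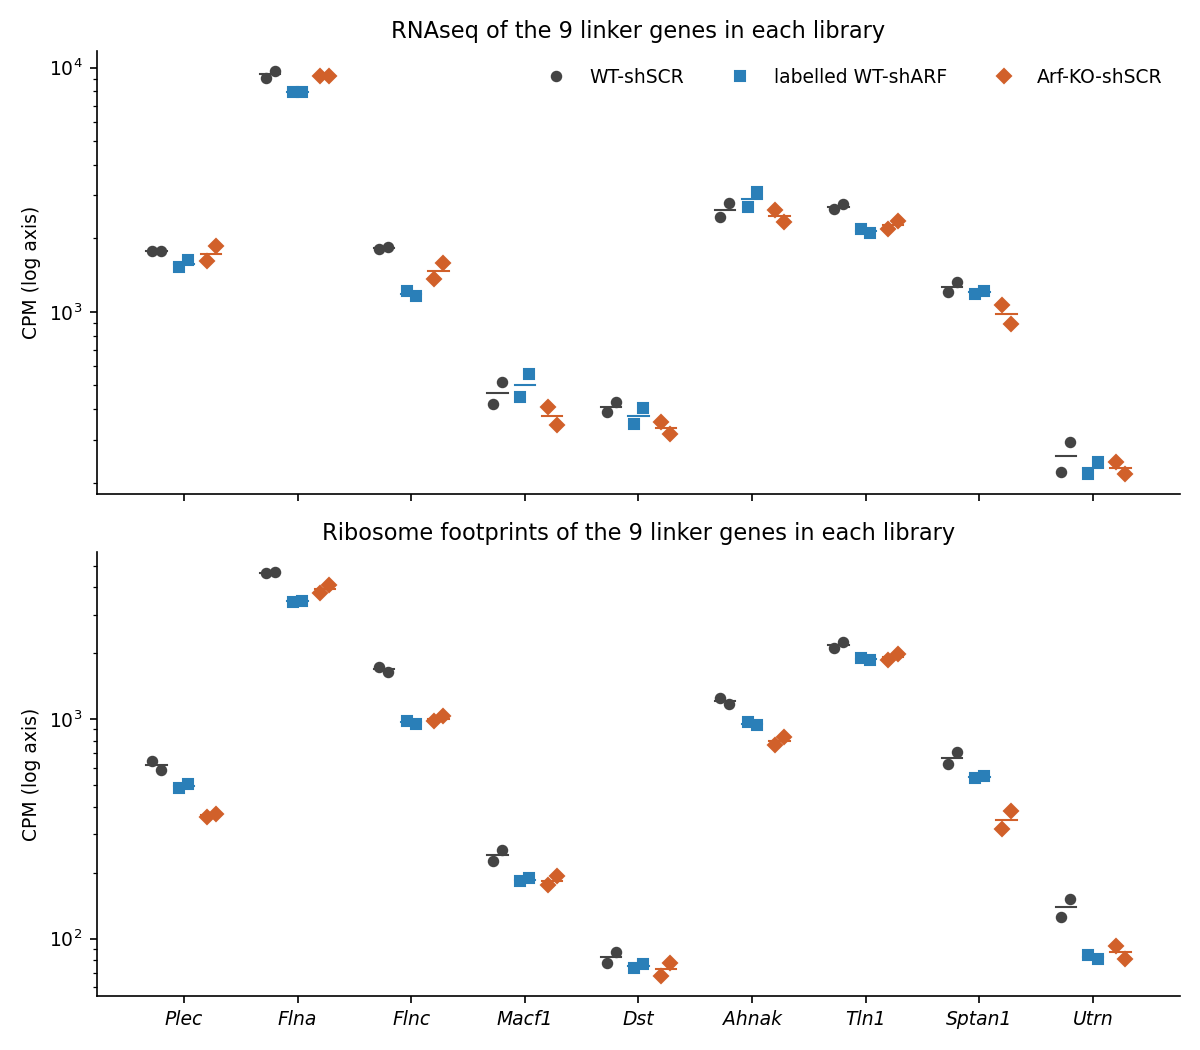
CPM of each linker gene in each of the 12 libraries, on log axes, with RNAseq above and footprints below; each point is 1 library and the short line is the mean of the 2 replicates of a group. In footprints both WT-shSCR libraries lie above all 4 other libraries for 9 of 9 genes, most closely for Dst (77.6 against 77.2 CPM). Of all genes tested, 26.9% were lower without overlap in Arf-KO-shSCR and 25.2% in the libraries labelled WT-shARF. The share lower in both was not computed.

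Translation efficiency (TE), the footprint CPM divided by the RNA CPM of the same replicate number, was low for most of these genes. In WT-shSCR it was 0.931 ± 0.0448 for Flnc and 0.812 ± 0.00907 for Tln1 (SD, n = 2). Utrn (0.542), Sptan1 (0.526), Macf1 (0.516), Flna (0.497) and Ahnak (0.467) followed, and neighbours among these 5 did not differ beyond their SDs. Plec (0.348 ± 0.0225) and Dst (0.201 ± 0.0013) came last, and 3.62% and 0.975% of genes had a lower TE. The median over 7490 genes with at least 10 CPM in both assays was 1.02. All 9 linker genes were thus below the median in WT-shSCR, and the 2 filamins differed by more than their SDs, with Flnc higher than Flna.

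**Figure D2:**
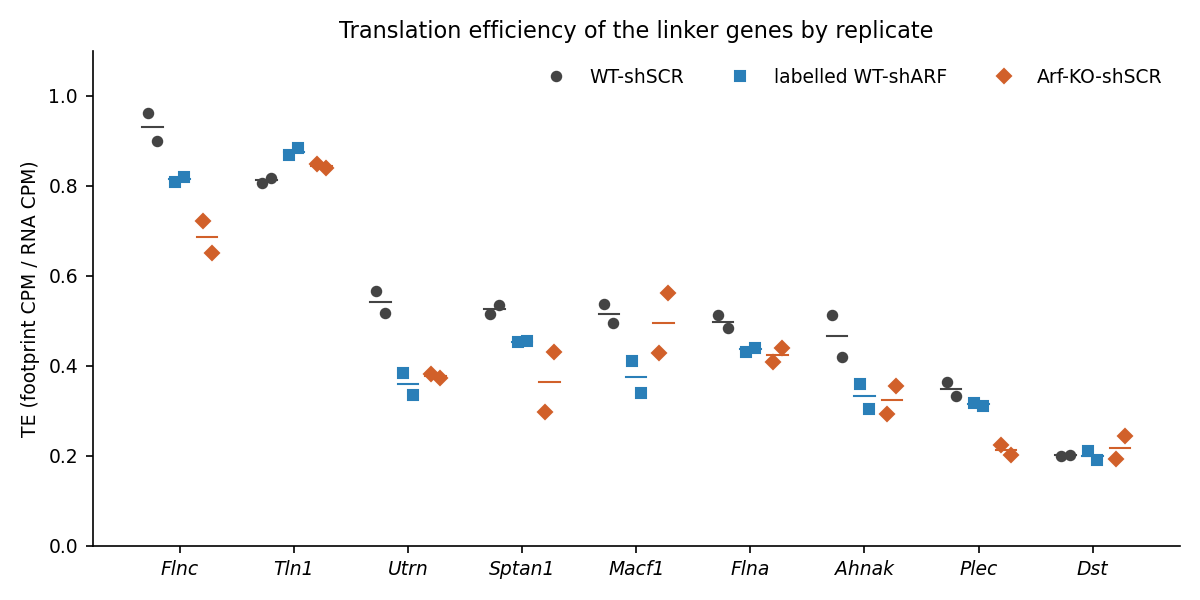
TE (footprint CPM divided by RNA CPM) of each linker gene by group, ordered by TE in WT-shSCR; points are replicates and short lines are means. Flnc is highest in WT-shSCR at 0.931, Dst lowest at 0.201, and Plec in Arf-KO-shSCR lies at 0.223 and 0.201.

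Between Arf-KO-shSCR and WT-shSCR, footprints of the linker genes were lower, and 7 of the 9 had a lower log2 fold change in footprints than in RNA, Dst and Tln1 being the exceptions (the difference between the assays is tested below as TE). In the quasi-likelihood test of edgeR over all genes, 8 of 9 were called lower in footprints at an adjusted p under 0.05, the exception being Dst; 8.95% of the 10737 genes tested were called lower. The median log2 fold change of the 9 genes was -0.64, against -0.001 over all genes. Both Arf-KO-shSCR libraries lay below both WT-shSCR libraries for 9 of 9 genes, where 26.9% of all genes did so. For RNA edgeR called 0 of 9 genes and DESeq2 called 0. Of 10659 genes, edgeR called 7.93% in either direction and DESeq2 4.38%. An unadjusted edgeR p under 0.05 was reached by 2 of the 9 and by 2378 of all 10659. All 9 RNA log2 fold changes were below 0 with a median of -0.26, and 5 of 9 genes were lower in RNA without overlap, against 25.3% of all genes. The footprint calls rest on having 2 WT-shSCR libraries: without either one, edgeR called 0 linker genes, and 0 of all genes in either direction. Without Arf-KO-shSCR replicate 1, Macf1 (-0.34) and Tln1 (-0.17) were not called.

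Among the actin crosslinkers, Flnc had the larger footprint difference and Flna the smaller. Flnc, the filamin best known from muscle, had 1738 and 1652 CPM of footprints in WT-shSCR and 982 and 1035 in Arf-KO-shSCR, a log2 fold change of -0.78 ± 0.07 (SE). Flnc RNA was 1806 and 1837 CPM against 1359.8 and 1592, a log2 fold change of -0.32 ± 0.14 that was not called. The 2 groups did not overlap in either assay. Flna, the filamin of most cell types, had footprints of 4665 and 4681 CPM against 3766 and 4082 (log2 fold change -0.29 ± 0.06), while its RNA values of 9109 and 9700.3 CPM overlapped 9229 and 9285.

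Plec footprints separated the groups while its RNA values overlapped. Plectin crosslinks intermediate filaments to actin, microtubules and adhesions. Plec footprints were 645 and 589.8 CPM in WT-shSCR and 359 and 372 in Arf-KO-shSCR, or 57.8% of the wildtype level (log2 fold change -0.79 ± 0.09). Plec RNA was 1774 and 1778 CPM against 1613 and 1854, so the groups overlapped. The 2 spectraplakins, which join microtubules to actin, had smaller footprint differences than Plec. Macf1 footprints were 225 and 255 CPM in WT-shSCR and 175 and 194 in Arf-KO-shSCR (log2 fold change -0.42 ± 0.12), with RNA at 419 and 516 against 407 and 344. Dst, also known as dystonin, had 77.6 and 86.7 CPM of footprints against 67.9 and 77.2, a log2 fold change of -0.21 ± 0.16 that was not called. Dst RNA was 388 and 429 CPM against 355 and 317 (log2 fold change -0.3 ± 0.15, not called), without overlap. Dst was the gene with the fewest footprint reads, 206 to 392 per library.

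Talin, the adaptor that activates integrins, had log2 fold changes of about the same size in both assays. Tln1 footprints were 2119.8 and 2257 CPM in WT-shSCR and 1861 and 1979 in Arf-KO-shSCR (log2 fold change -0.22 ± 0.07). Tln1 RNA was 2631 and 2758 CPM against 2194 and 2359.9 (log2 fold change -0.26 ± 0.14, not called). The groups did not overlap in either assay.

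The membrane skeleton genes had some of the larger footprint differences. Sptan1, the non-erythroid alpha spectrin, had 623 and 709.8 CPM of footprints in WT-shSCR and 315 and 384 in Arf-KO-shSCR, 51.2% of the wildtype level and the lowest log2 fold change of the 9 (-0.97 ± 0.1). Its RNA was 1208 and 1323 CPM against 1063 and 895 (log2 fold change -0.38 ± 0.15, not called). Utrn, the autosomal relative of dystrophin, had 126 and 152 CPM of footprints against 92.4 and 80.7 (log2 fold change -0.71 ± 0.14), and RNA of 222 and 294 against 243 and 217. Utrn RNA values overlapped between the groups and Sptan1 RNA values did not. Ahnak, a very large scaffold at the membrane that binds the annexin 2 complex, had footprints of 1257 and 1171 CPM against 764 and 832 (log2 fold change -0.64 ± 0.08). Ahnak RNA was 2451 and 2787 CPM against 2604 and 2344, and the groups overlapped.

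TE was tested over 8 libraries, as a difference between the assays in how they changed with condition. Plec was the 1 linker gene called lower in Arf-KO-shSCR (log2 fold change -0.77 ± 0.15), where 0.106% of 11314 genes were called lower. Its TE was 0.364 and 0.332 in WT-shSCR and 0.223 and 0.201 in Arf-KO-shSCR. That call did not hold in every fit: without either WT-shSCR replicate the TE log2 fold change of Plec was -0.63 or -0.83 and was not called, without Arf-KO-shSCR replicate 2 it was -0.68 and not called (Sptan1 was, at -0.87), and with offsets for coding length it was -0.73 and not called. DESeq2 called 4 of the 7 linker genes to which it gave an adjusted p, Plec, Flnc, Ahnak and Sptan1, and called 2.3% of the 566 genes with an adjusted p lower. The edgeR TE log2 fold changes were -0.61 ± 0.17 for Sptan1, -0.57 ± 0.14 for Ahnak, -0.57 ± 0.22 for Utrn and -0.5 ± 0.14 for Flnc, all not called. Flna was at -0.28 ± 0.11 and was not called. Macf1 (-0.12 ± 0.19), Dst (0.05 ± 0.19) and Tln1 (0 ± 0.13) lay at 0 within their errors. The median of the 9 was -0.5 against -0.036 over all genes. An unadjusted edgeR p under 0.05 was reached by 6 of the 9 and by 773 of all 11314.

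**Figure D3:**
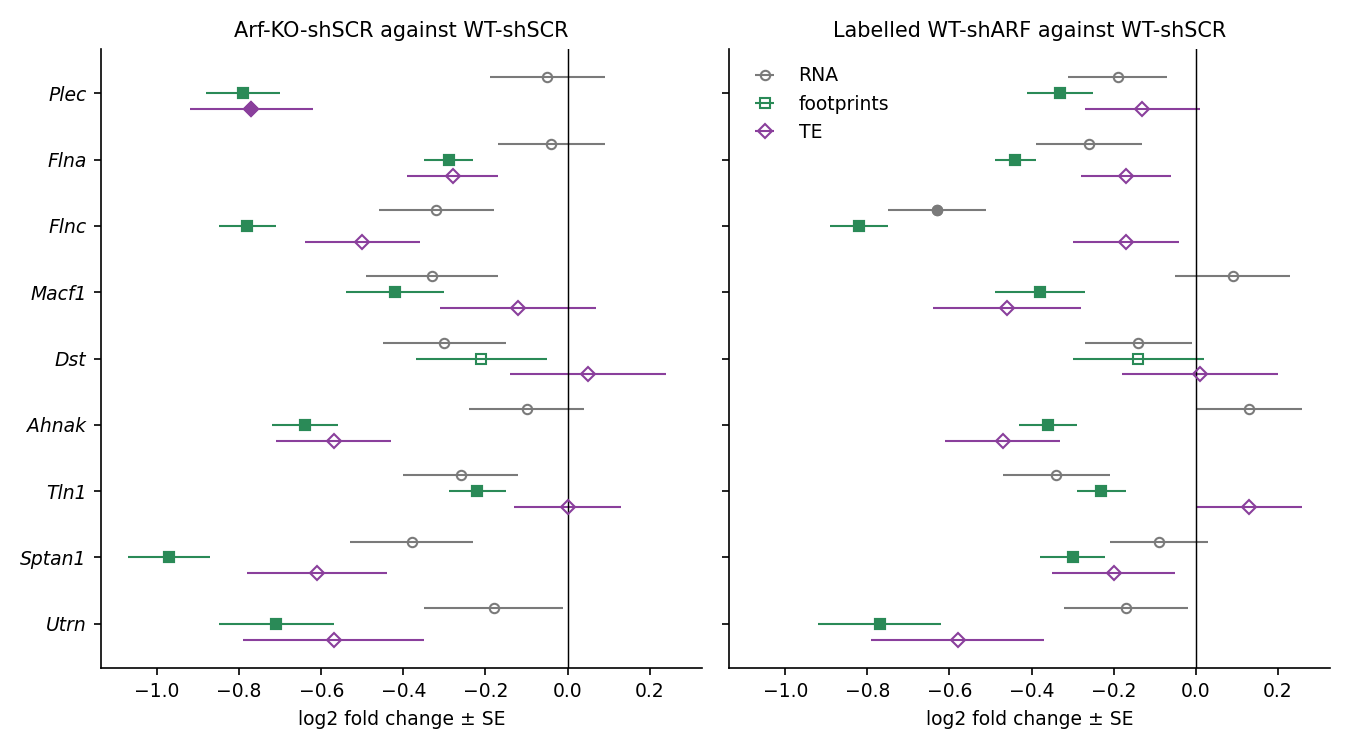
Log2 fold changes with standard errors (edgeR, 2 replicates per group) of RNA (circles), footprints (squares) and TE (diamonds) for each linker gene; filled symbols passed an adjusted p of 0.05 over all genes. Footprints are filled for 8 of 9 genes in both panels, RNA for Flnc in the right panel, and TE for Plec in the left panel.

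In the libraries labelled WT-shARF, against the same WT-shSCR libraries, 8 of 9 genes were again called lower in footprints, with Dst the exception, and 5.5% of 10307 genes were called lower. Because both comparisons share their control libraries, the 2 sets of calls are not separate evidence. The median log2 fold change of footprints was -0.36, and the groups did not overlap for 9 of 9 genes, where 25.2% of all genes were lower without overlap. The number called was 4 without either WT-shARF replicate and 5 without WT-shSCR replicate 2; Macf1, Tln1 and Sptan1 were not called in each of these 3 fits, nor was Plec in the first 2. With offsets for coding length, Macf1 (-0.29) and Tln1 (-0.18) were not called, which left 6. For RNA, Flnc was the 1 gene called, and 4.17% of 10503 genes were called lower. That RNA count ranged from 0 without WT-shARF replicate 2 to 2, Flnc and Tln1, without WT-shSCR replicate 1.

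Flnc was low in both assays there. With footprints at 985 and 951 CPM it had a log2 fold change of -0.82 ± 0.07 from WT-shSCR, and its RNA stood at 1217 and 1161 CPM (-0.63 ± 0.12). Of the muscle marker sums given above, skeletal muscle RNA, smooth muscle RNA and smooth muscle footprints were lowest in this group, and skeletal muscle footprints were not. Smooth muscle footprints were highest in Arf-KO-shSCR, where Flnc footprints were also lower than in WT-shSCR. A link between these sums and Flnc was not tested. Utrn footprints were 83.9 and 80.7 CPM (-0.77 ± 0.15), with RNA at 218 and 242 (-0.17 ± 0.15). These were the 2 largest footprint differences, and they differ in their RNA. Flna footprints were 3436 and 3483 CPM (-0.44 ± 0.05), Ahnak 969 and 940.2 (-0.36 ± 0.07), Plec 484 and 507 (-0.33 ± 0.08) and Sptan1 538 and 552 (-0.3 ± 0.08). All 4 of these genes lay below both WT-shSCR libraries. Macf1 footprints were 184 and 189 CPM (-0.38 ± 0.11), Tln1 1896 and 1859.7 (-0.23 ± 0.06) and Dst 73.2 and 76.6 (-0.14 ± 0.16). For TE edgeR called 0 of 9 genes, with 0.0354% of 11289 genes called by edgeR in either direction. Macf1, Ahnak and Utrn, 3 of the 9, reached an unadjusted edgeR p under 0.05, as did 751 of all 11289. DESeq2 called 1 of the 7 linker genes with an adjusted p, Ahnak, and 0.531% of 565 genes lower. Without WT-shSCR replicate 2, edgeR called Ahnak (-0.65). The 3 lowest TE log2 fold changes from WT-shSCR were those of Utrn (-0.58 ± 0.21), with a TE of 0.384 and 0.334, Ahnak (-0.47 ± 0.14), with 0.36 and 0.304, and Macf1 (-0.46 ± 0.18), with 0.411 and 0.339.

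Set directly against the libraries labelled WT-shARF, Arf-KO-shSCR had lower footprints of 3 genes, Plec (-0.47 ± 0.08), Ahnak (-0.29 ± 0.07) and Sptan1 (-0.67 ± 0.09), where 4.3% of 10941 genes were called lower. Without WT-shARF replicate 1 the test called 0 of these and 0 of all genes, and without replicate 2 it called 0 of them and 1 gene of all. Footprints of Flnc (0.03 ± 0.06), Tln1 (0 ± 0.05), Utrn (0.04 ± 0.14), Macf1 (-0.05 ± 0.1) and Dst (-0.08 ± 0.15) differed by less than their errors. Flna was 0.15 ± 0.05 higher in Arf-KO-shSCR and was not called, but it was with total count scaling (0.16), with no filter (0.16) and at an adjusted p under 0.1 (0.15). RNA of 0 linker genes was called by edgeR and 0 by DESeq2. Over all genes edgeR called 2.57% of 10632 in either direction and DESeq2 2.71% of 7128. An unadjusted edgeR p under 0.05 for RNA was reached by 3 of the 9 and by 1740 of all 10632. TE of 0 linker genes was called by edgeR, with 0.043% of 11632 genes called. For TE, 4 of the 9 and 880 of all 11632 reached an unadjusted edgeR p under 0.05. DESeq2 called TE of 1, Plec (edgeR log2 fold change -0.6 ± 0.13), and 0.247% of 2837 genes lower. Without Arf-KO-shSCR replicate 1, the RNA log2 fold changes were 0.42 for Flnc, -0.55 for Macf1 and -0.43 for Sptan1. In that fit the log2 fold change was -0.67 for TE of Plec, -0.23 for Ahnak footprints and 0.21 for Flna footprints.

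Coding length alone was compared, since all 9 genes are long. Among the 325 other genes with at least 6000 nt of coding sequence, the median footprint log2 fold change in Arf-KO-shSCR was 0.003, with 13.8% called lower and 11.1% called higher. In the libraries labelled WT-shARF, 304 such genes had a median of -0.005, with 9.21% called lower and 6.58% higher. Medians of TE were lower in this class than in genes under 1000 nt, at -0.073 against 0.031 in Arf-KO-shSCR and at -0.112 against 0.105 in the libraries labelled WT-shARF. Genes of at least 6000 nt, linkers left out, took 6.63 and 6.41% of footprint reads in WT-shSCR, 5.93 and 5.76% in the libraries labelled WT-shARF, and 5.48 and 5.42% in Arf-KO-shSCR. The part of length in the linker gene values was not tested beyond the fits with length offsets. Over this class the lower quartile was -0.33 in Arf-KO-shSCR, and Plec, Flnc, Macf1, Ahnak, Sptan1 and Utrn lay below it.

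**Figure D4:**
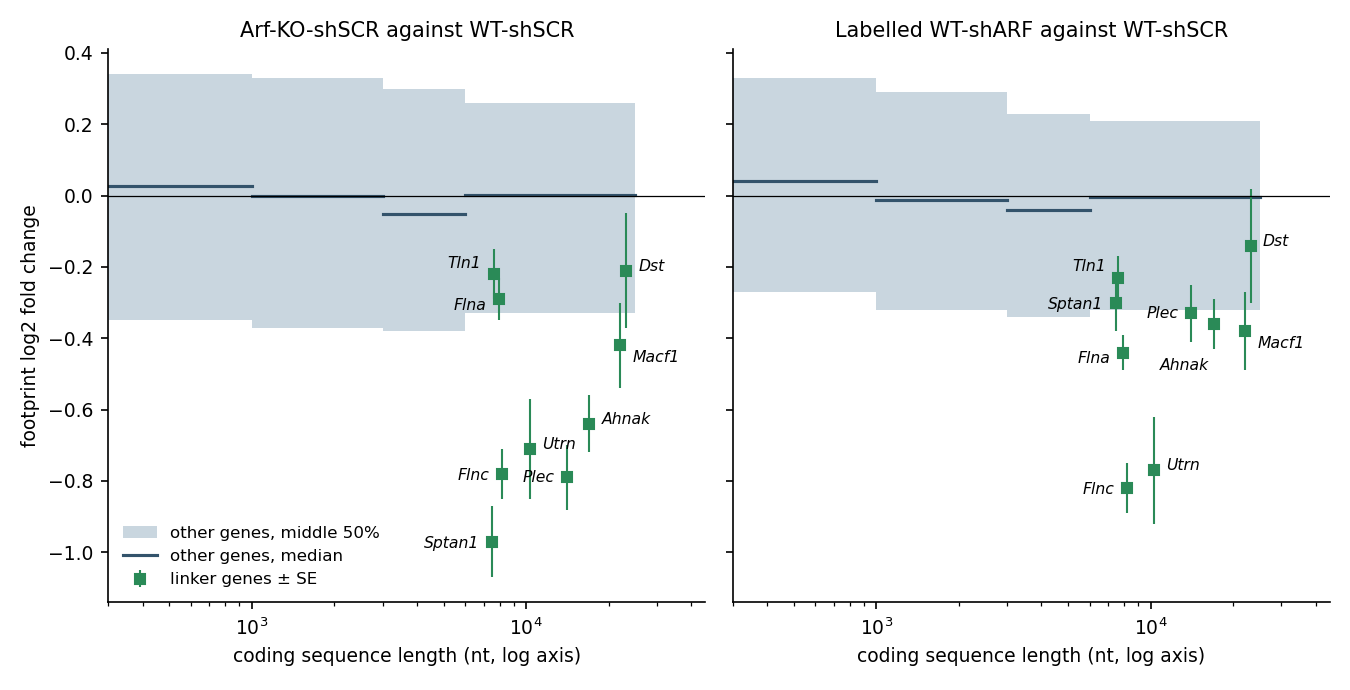
Footprint log2 fold change against coding length (log axis): squares are the 9 linker genes with standard errors, blue lines and bands are the median and middle 50% of all other genes tested in 4 length classes. The band for genes of at least 6000 nt is centred at 0.003 on the left and at -0.005 on the right, and all 9 squares lie below 0.

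Partner genes of the linkers were counted from lists of 88 genes: relatives of the same protein families, integrin adhesion proteins, filament proteins, the dystroglycan complex, microtubule end proteins, the spectrin skeleton and Ahnak partners. Of these, 86 were in the files. In Arf-KO-shSCR footprints, 15 of 71 tested were called lower and 6 higher, against 8.95% and 9.57% of all genes. The higher calls were 4 of 11 filament genes, 1 of 13 family relatives and 1 of 12 spectrin skeleton genes. By list the lower calls were 4 of 13 family relatives, 4 of 15 integrin adhesion genes, 2 of 11 filament genes, 1 of 9 dystroglycan complex genes, 2 of 9 microtubule end genes, 2 of 12 spectrin skeleton genes and 0 of 2 Ahnak partners. As for the linkers, 0 of these calls were made without either WT-shSCR library, where 0 of all genes passed. In the libraries labelled WT-shARF 12 of 70 were called lower and 3 higher, against 5.5% and 5.63% of all genes. RNA was called lower for 5 of 71 and 8 of 71 in these comparisons, against 3.99% and 4.17% of all genes, and higher for 0, against 3.94% and 3.11%. TE was called by edgeR for 0 of 74 and 0 of 76 partners. An unadjusted edgeR p under 0.05 was reached by 6 and 7 of these, and by 773 of 11314 and 751 of 11289 genes. DESeq2 called lower 2 of 23 and 1 of 25 partners with an adjusted p. Of the 566 and 565 genes to which it gave an adjusted p, it called 2.3% and 0.531% lower.

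Among the partners with the smallest p in Arf-KO-shSCR footprints, Nes, the intermediate filament protein nestin, fell by 1.63 ± 0.1 on the log2 scale (adjusted p = 7.05e-14, edgeR), from 558 and 548 CPM to 194 and 172. Itgb1, the integrin beta 1 chain that talin binds, fell by 0.6 ± 0.06 (adjusted p = 4.93e-09), from 3744 and 3681 CPM to 2403 and 2608. Sptbn1, the beta spectrin that pairs with the product of Sptan1, fell by 0.68 ± 0.09 (adjusted p = 2.26e-06), and Pxn, which encodes the adhesion adaptor paxillin, by 1.15 ± 0.19 (adjusted p = 3.85e-05). RNA of Itgb1 (fell by 0.6 ± 0.14, adjusted p = 0.0134) and of Nes (fell by 1.06 ± 0.15, adjusted p = 0.000146) was also called lower. In the libraries labelled WT-shARF, footprints of Anxa2, the annexin that binds Ahnak, fell by 1.03 ± 0.07 (adjusted p = 6.65e-13), with Itga5 (0.6 ± 0.07), Itgb1 (0.47 ± 0.06) and Itgav (0.56 ± 0.08) also called lower. Anxa2 footprints in Arf-KO-shSCR were 1865 and 1835 CPM against 2065 and 2010.2 in WT-shSCR (log2 fold change -0.17 ± 0.06, not called).

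Among 11594 genes, those whose pattern over the 12 libraries was most like the mean of the 9 linkers included Chpf2, Cpeb1, Ldb3 and Mink1. Their log2 CPM, centred within each assay, had a Pearson r with the mean of the linkers of 0.943 for Chpf2, 0.942 for Cpeb1, 0.942 for Ldb3 and 0.939 for Mink1. Cpeb1 and Ldb3 had few reads, with RNA counts per library of 9 to 39 for Cpeb1 and 7 to 30 for Ldb3. Each linker gene against the mean of the other 8 gave an r of 0.66 (Flna) to 0.85 (Utrn). These points share libraries and scaling, and the r values are a description.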

How the data were processed

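RNAseq and ribosome footprints (RNase T1) were measured in 12 libraries. The deposited files hold raw counts per gene: the authors clipped adapters, extracted UMIs, removed rRNA and other ncRNA reads with Bowtie2, aligned the rest with TopHat (genome mm10) and used HTSeq to count reads per gene over annotated coding exons; tool versions are not given in the sources used here. The RNA was fragmented and size-selected like the footprints. Rows naming no gene were left out; they held 94.74 to 96.83% of the summed counts in RNAseq and 57.12 to 64.82% in footprints, mostly reads without a unique alignment.

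Counts were tested with edgeR 4.0.16 (quasi-likelihood F test, TMM factors, filterByExpr, Benjamini-Hochberg over all genes, adjusted p under 0.05), in 4 libraries for RNA or footprints and 8 for TE, as the assay by condition interaction. All 9 genes passed the filter in every fit. An exact permutation test of 2 against 2 cannot go below p = 0.33. CPM used TMM factors over the 6 libraries of an assay. Of 20661 genes, 20414 had a coding length in GENCODE M21. DESeq2 1.42.0, other scalings and filters, a replicate block, all groups in one fit, coding length offsets and leaving out each replicate were alternatives; scripts were tested on simulated data. The linker genes, lists and tests were chosen with earlier results of these data known. Named partners were, per comparison, those with an adjusted p under 0.05 and at most the 5 smallest p; the 5 genes most alike were ranked by Pearson r. Of the genes these rules picked, 1 is not reported here.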

Additional observations from a re-analysis of the deposited data

How the results depend on the processing

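With 2 replicates per group most calls lean on single libraries (footprint calls of Flna, Flnc, Ahnak and Utrn in the libraries labelled WT-shARF held without each of the 4), reads without a unique alignment are lost, and Dst and Utrn have few footprint reads. Footprints in Arf-KO-shSCR against WT-shSCR gave 0 to 8 calls over the fits leaving out 1 library each (0 without either WT-shSCR library). For TE in that comparison these fits gave 0 to 1 calls and medians from -0.54 to -0.35, DESeq2 gave 4 calls, coding length offsets 0, and no filter a median of -0.37. For RNA in the libraries labelled WT-shARF, leaving out 1 library gave 0 to 2 calls and medians from -0.22 to -0.05; the calls were 2 with no filter, 2 with coding length offsets, 2 at an adjusted p under 0.1 and 3 with the replicate block, and the medians -0.17 with RLE factors, -0.18 with upper quartile factors, -0.05 with total counts, -0.16 with at least 10 counts in every library, -0.17 with all 3 groups in one fit and -0.22 with coding length offsets. The other values there were 4 to 8 footprint calls without 1 library, a footprint median of -0.28 and 6 calls with length offsets, and 0 to 1 TE calls without 1 library and 1 with DESeq2. Arf-KO-shSCR against the libraries labelled WT-shARF gave 0 to 3 RNA calls, 0 to 3 footprint calls, footprint medians from -0.13 to 0.01 and 0 to 1 TE calls without 1 library, and 1 TE call each with DESeq2, no filter and length offsets. The cause was not tested, other than that these fits hold fewer libraries. Upper quartile factors, total counts and the use of all coding bases were added after the data were seen. Total count scaling moved the all-gene median to 0.13 in RNA and -0.122 in TE of the libraries labelled WT-shARF. No direction of a called gene turned. Within each assay, deviations of samples with the same replicate number in different groups correlated between -0.03 and 0.026, so no shared replicate effect was seen there. A correlation near 0 cannot show that samples are unpaired. Whether RNAseq and footprint samples of the same number share a culture was not tested. The block moved no other count. The alternative with protein lengths was not run.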
